A study of Mus musculus with 69 samples.

Results

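The chromosome 4 segment from 6.3 to 11.7 Mb was described here exon by exon and gene by gene in mouse ventral striatum. Its members are the exon rows on chromosome 4 (mm10) whose start lies in that range, and there were 395 such rows of 253821 in the exon table. They belong to 68 genes of 42279. The segment was chosen by results of the line comparison in these same libraries, so every difference between the lines below is a description and none of it is a test of the segment. RNA came from 69 mice, 1 library each: 17 females and 18 males of HDID1, the selected line bred for High Drinking in the Dark, and 17 females and 17 males of HSNpt, the control stock. Every mouse had been offered a bottle of 20% ethanol in a 4-day trial that opened 3 h into the dark phase, with sessions of 2 h until a last one of 4 h, and its striatum was taken 3 weeks later. The sources used here give no ages. HDID1 is a single selected line and HSNpt a single genetically mixed stock, so selection cannot be told apart from any other difference between them.

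Neighbouring genes of a chromosome segment are inherited together, and a line bred from a genetically mixed stock carries a sample of the stock's haplotypes. The genes here have varied textbook roles. Tox encodes an HMG-box nuclear factor and Chd7 a chromatin remodeller. Car8 encodes a carbonic anhydrase-related protein that binds the type 1 inositol trisphosphate receptor and is known from cerebellar Purkinje cells, and the Asph locus encodes an aspartate beta-hydroxylase of the endoplasmic reticulum as well as the calcium-handling proteins junctin and junctate. Clvs1 encodes clavesin, a lipid-binding protein of neuronal endosomes, and Nsmaf an adaptor between a tumour necrosis factor receptor and neutral sphingomyelinase.

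The exon rows on which the exon-level description turns are shown first. Each sequence is the RNA-sense strand of a GENCODE M21 transcript on mm10, with the exon row in capitals and the 30 bases spliced to it on each side in lower case. They are the wholly coding rows called between the lines, the single row called for its usage, and an internal row of the noncoding gene with the largest difference. Rows are numbered from the 5′ end of each gene.
Nsmaf row 18 of 30, minus strand, chr4:6418261-6418381: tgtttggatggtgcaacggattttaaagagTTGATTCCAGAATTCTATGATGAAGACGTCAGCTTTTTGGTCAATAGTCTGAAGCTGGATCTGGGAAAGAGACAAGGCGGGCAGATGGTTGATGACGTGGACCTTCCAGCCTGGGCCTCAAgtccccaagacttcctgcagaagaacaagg
Tox row 10 of 11, minus strand, chr4:6688819-6688970: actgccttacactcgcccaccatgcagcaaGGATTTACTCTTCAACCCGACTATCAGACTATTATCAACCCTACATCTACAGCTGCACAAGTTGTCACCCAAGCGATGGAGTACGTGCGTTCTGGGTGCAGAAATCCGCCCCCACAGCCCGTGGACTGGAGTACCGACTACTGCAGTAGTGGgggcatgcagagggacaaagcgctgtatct
Clvs1 row 9 of 10, plus strand, chr4:9429740-9429975: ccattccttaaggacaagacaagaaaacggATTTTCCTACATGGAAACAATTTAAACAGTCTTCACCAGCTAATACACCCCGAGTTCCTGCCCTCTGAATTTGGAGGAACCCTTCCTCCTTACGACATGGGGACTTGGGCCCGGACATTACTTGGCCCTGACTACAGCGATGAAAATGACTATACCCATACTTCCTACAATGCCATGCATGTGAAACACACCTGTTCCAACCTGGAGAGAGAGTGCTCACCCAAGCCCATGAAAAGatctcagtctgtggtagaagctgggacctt
Asph row 19 of 33, minus strand, chr4:9594663-9594698: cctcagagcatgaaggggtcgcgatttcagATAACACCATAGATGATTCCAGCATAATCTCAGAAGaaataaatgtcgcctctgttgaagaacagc
4930412C18Rik row 2 of 7, plus strand, chr4:9776037-9776197: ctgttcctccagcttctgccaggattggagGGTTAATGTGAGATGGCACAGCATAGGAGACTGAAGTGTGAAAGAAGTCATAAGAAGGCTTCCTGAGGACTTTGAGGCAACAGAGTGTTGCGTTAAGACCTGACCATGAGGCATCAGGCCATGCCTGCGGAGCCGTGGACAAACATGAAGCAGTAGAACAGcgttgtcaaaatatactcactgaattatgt
Ndufaf6 row 4 of 9, minus strand, chr4:11066651-11066707: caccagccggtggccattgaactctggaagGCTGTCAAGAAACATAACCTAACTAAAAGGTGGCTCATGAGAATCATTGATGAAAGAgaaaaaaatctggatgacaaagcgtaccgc

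The deposited values are raw read counts. Library totals lay between 14077983 and 35257422 with a median of 17646316, and levels are given as CPM, the counts scaled to a common (TMM) library size. Markers of striatal spiny neurons summed to a median of 9140 CPM in HDID1 and 11310 CPM in HSNpt, and none of those 15 genes was at 0 in all libraries, so the tissue label holds. The lowest summed level of the same markers was 1123 CPM in HDID1 and 3049 CPM in HSNpt. In marker scores 12 libraries stood apart, 7 of HDID1 and 5 of HSNpt. The balance of reads between the 5′ and the 3′ exons, taken over 5613 genes, was low in 8 libraries, 6 of HDID1 and 2 of HSNpt. The library labelled HSNpt male replicate 10 went against its label, with 337 CPM of Xist and 0.726 CPM over 4 Y-linked genes, where every other male had at least 116 CPM of the Y-linked genes and at most 0.414 CPM of Xist. Without it the number of segment genes called by line was unchanged at 11, and results it moves are given with and without it. Since the tissue was sequenced in bulk, fewer cells of a type and less RNA per cell cannot be told apart.

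Of the 68 genes, 20 are protein-coding, 23 are pseudogenes and 22 are other noncoding genes in GENCODE M21, and 3 were not found there by name. The filter on low counts was passed by 20 genes, 17 of them protein-coding. Of the other 48 genes, 18 had no read in any library, and none of the 30 with reads had a mean above 7.13 counts or more than 26 counts in any library. Among these were Fsbp with 492 reads over all libraries, Gm26663 with 368, the microRNA entry Gm25677 with 134 and the splicing regulator Esrp1 with 116. Per kilobase of exon, the mean level was highest for Rab2a at 143.7 CPM per kb, the GTPase of transport between endoplasmic reticulum and Golgi, followed by Sdcbp (syntenin) at 26.6 and 2610301B20Rik at 16.5. Car8 stood at 3.62, Tox at 1.98, Chd7 at 1.37, 4930412C18Rik at 1.04 and Rad54b lowest at 0.303 CPM per kb.

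Between the lines, 11 of the 20 tested segment genes were called (edgeR quasi-likelihood test, Benjamini-Hochberg adjusted p below 0.05), where 11.7% of the 16867 genes tested in the whole table were called. Because the segment was selected on this contrast, that count is not evidence about it. Tox, Gm11802, Car8, 4930412C18Rik, 2610301B20Rik and Plekhf2 were higher in HDID1, and Nsmaf, Gm26548, Clvs1, Asph and Rad54b were lower. The median size of the log2 fold change was 0.155 over the 20 genes, 0.107 over all genes tested, 0.223 over 12 genes in the stretch of the same length before the segment and 0.103 over 22 genes in that after it. Both directions occurred along the segment: 10 of the 20 genes had a positive and 10 a negative log2 fold change, and neighbours had the same sign in 11 of 19 pairs, or in 6 of 10 pairs when only called genes were lined up. Some neighbours share exon bases on opposite strands, so their signs are not independent. Sdcbp with Nsmaf, Tox with Gm11802, Gm26548 with Clvs1 and Clvs1 with Asph had the same sign. Ccne2 and Ints8 share bases too and had opposite signs. Over 12 fits of the line contrast, the reported one and its alternatives, 4930412C18Rik and Clvs1 were called in 12, Nsmaf in 11, 2610301B20Rik in 10, Gm11802 and Car8 in 8, Tox, Gm26548 and Plekhf2 in 7, Rad54b in 6 and Asph in 4.

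**Figure D1:**
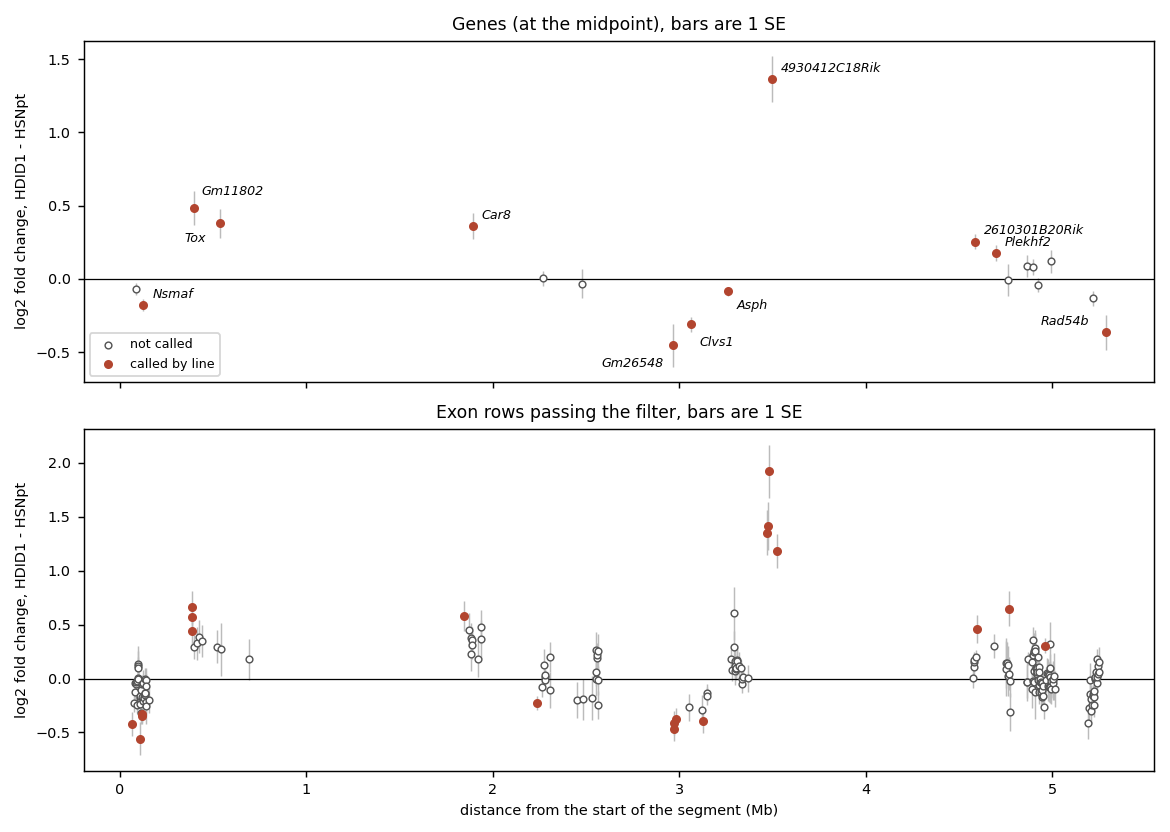
Log2 fold change of HDID1 against HSNpt (y axis) by distance in Mb from the start of the segment (x axis), for the 20 tested genes above and the 199 exon rows that passed the filter below; filled points were called by line and bars are 1 SE. The highest point in both panels is 4930412C18Rik at 1.36 for the gene, and called genes lie on both sides of 0, in runs. Tox, Gm11802 and Car8 lie above 0, then Gm26548, Clvs1 and Asph below it. Tox with Gm11802, Gm26548 with Clvs1 and Clvs1 with Asph share exon bases on opposite strands, so these runs are not of independent genes. 4930412C18Rik, 2610301B20Rik and Plekhf2 follow above 0, while Nsmaf and Rad54b, the first and last called genes, lie below it.

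Tox is at chr4 6686353 to 6991557 on the minus strand. Its level was 9.93 CPM in the lowest, 16.9 CPM in the median and 27.5 CPM in the highest of 35 HDID1 mice, and 7.91, 12.5 and 22.7 CPM in 34 HSNpt mice. The lines overlapped widely, though 28 of the 35 HDID1 values exceeded the median of HSNpt. The log2 fold change was 0.38 (SE 0.10). Tox moved with the spiny neuron marker score, which is lower in HDID1: 6 of 14 tested spiny neuron markers were lower in that line and 0 were higher. Among HSNpt mice the correlation of Tox with that score was r = -0.71 and rho = -0.74 (for r and rho, permutation p = 2e-05 and 1e-05, adjusted p = 0.000444 over 200 relations), and r was -0.75 without the 2 mice farthest from the median score. With 6 marker scores as covariates the Tox log2 fold change was 0.13 and was not called, and without the 12 libraries that stand apart it was 0.29 and not called. Gm11802, annotated as antisense to Tox, stood at 0.621, 1.46 and 2.80 CPM in HDID1 against 0.469, 1.11 and 2.22 CPM in HSNpt (log2 fold change 0.48, SE 0.11). Its first exon row of 260 bases lies wholly inside the last Tox row, so the counts of the pair are uncertain.

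Chd7 is the other nuclear gene of the proximal part and differed little between the lines. It stood at 6.84, 19.6 and 29.5 CPM in HDID1 and at 9.78, 19.5 and 28.9 CPM in HSNpt, with a log2 fold change of -0.03 (SE 0.10) that was not called. Of the other TOX genes, Tox2 was called higher in HDID1 at 43 against 33.9 CPM in the medians (log2 fold change 0.43, SE 0.13), while Tox3 (0.20, SE 0.10) and Tox4 (-0.05, SE 0.02) were not called. Of 6 other CHD remodellers, 0 were called.

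Car8 is at chr4 8143362 to 8239041 on the minus strand. It stood at 8.61, 14.9 and 26.98 CPM in HDID1 and at 8.24, 11.6 and 25.1 CPM in HSNpt, a log2 fold change of 0.36 (SE 0.09). All but 5 of the HDID1 mice lay above the HSNpt median, and the ranges of the lines nearly coincided. Car8 moved with markers of thalamus and septum, of which 2 of 8 were called higher in HDID1 and none lower, and in HDID1 also with markers of hypothalamus, of which 4 of 8 were called higher and none lower. The summed level of the hypothalamus markers had a median of 110.9 CPM in HDID1 and 42.01 CPM in HSNpt. Car8 followed their score with r = 0.71 and rho = 0.72 in HDID1 (permutation p = 1e-05 and 1e-05, adjusted p = 0.0001 over 200 relations, r = 0.69 without the 2 farthest mice) and with r = 0.34 and rho = 0.26 in HSNpt (permutation p = 0.0485 and 0.139, adjusted p = 0.149 over 200 relations, r = 0.29 without the 2 farthest mice). The summed level of the thalamus and septum markers ran from 78.9 to 1880 CPM in HDID1 (median 354.2) and from 68.7 to 1474 CPM in HSNpt (median 206.5). Within HSNpt the correlation of Car8 with the thalamus and septum score was r = 0.61 and rho = 0.50 (permutation p = 0.00012 and 0.00265, adjusted p = 0.002 over 200 relations, r = 0.45 without the 2 farthest mice). Within HDID1 it was r = 0.77 and rho = 0.75 (permutation p = 1e-05 and 1e-05, adjusted p = 0.0001 over 200 relations, r = 0.72 without the 2 farthest mice). Car8 also went against the spiny neuron score. In HDID1 r was -0.68 and rho -0.61 (permutation p = 1e-05 and 0.00013, adjusted p = 0.0001 over 200 relations, r = -0.68 without the 2 farthest mice). In HSNpt r was -0.48 and rho -0.42 (permutation p = 0.00504 and 0.0146, adjusted p = 0.0297 over 200 relations, r = -0.45 without the 2 farthest mice). With 6 marker scores as covariates the Car8 log2 fold change was 0.24, and without the libraries that stand apart it was 0.27, neither called. In the list of carbonic anhydrases and inositol trisphosphate receptors, 2 of 9 genes were called, beside 11.7% of all genes tested. Both were lower in HDID1: Car12 (log2 fold change -0.36, SE 0.11) and Itpr3 (-0.34, SE 0.11). Itpr1, which encodes the receptor that the Car8 protein binds, stood at a median of 1080 CPM in HDID1 and 1410 CPM in HSNpt (log2 fold change -0.37, SE 0.15) and was not called.

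Clvs1 and Asph lie tail to tail on opposite strands. Clvs1, at chr4 9269293 to 9451691, stood at 40.7, 67.6 and 83.9 CPM in HDID1 and at 59.6, 79.9 and 113.6 CPM in HSNpt, a log2 fold change of -0.31 (SE 0.05). Of the HSNpt mice, 11 were above every HDID1 mouse, and 2 of 35 HDID1 mice were above the HSNpt median. Among HSNpt mice it followed the spiny neuron score with r = 0.71 and rho = 0.74 (permutation p = 2e-05 and 1e-05, adjusted p = 0.000444 over 200 relations, r = 0.69 without the 2 farthest mice). Among HDID1 mice r was 0.36 and rho 0.55 (permutation p = 0.0407 and 0.00062, adjusted p = 0.1045 over 200 relations, r = 0.62 without the 2 farthest mice). With 6 marker scores as covariates the Clvs1 log2 fold change was -0.19. Gm26548, a long noncoding RNA whose exon row covers all 442 bases of the first Clvs1 row on the other strand, stood at 0.143, 3.45 and 5.13 CPM in HDID1 and at 0.748, 4.49 and 6.05 CPM in HSNpt (log2 fold change -0.45, SE 0.14). Its level followed the 5′ balance of the library, with r = 0.88 and rho = 0.47 in HSNpt (permutation p = 2e-05 and 0.00566, adjusted p = 0.000444 over 200 relations, r = 0.50 without the 2 farthest mice). In HDID1 r was 0.97 and rho 0.87 (permutation p = 1e-05 and 1e-05, adjusted p = 0.0001 over 200 relations, r = 0.89 without the 2 farthest mice). With the 5′ balance as covariate the Gm26548 log2 fold change was -0.28 and called, with 6 marker scores it was -0.28 and not called, and without the libraries that stand apart it was -0.42 and not called.

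Asph, at chr4 9448069 to 9669344, stood at 98.4, 119.7 and 142.1 CPM in HDID1 and at 108.1, 124.3 and 158.2 CPM in HSNpt. The log2 fold change was -0.09 (SE 0.03), the smallest of the called genes of the segment, and the ranges overlapped almost in full. It was not called without a filter on low counts (-0.09), with the 5′ balance or with 6 marker scores as covariates (-0.07 in each), or without the libraries that stand apart (-0.08). Part of its counts comes from bases shared with Clvs1. The last Clvs1 row, chr4:9449390-9451691, lies inside an Asph row, chr4:9449079-9453445, so all of its 2302 bases belong to rows of both genes. Those rows had mean counts of 869.2 for Clvs1 and 855.5 for Asph and made up 63.7% of all Clvs1 reads and 38.5% of all Asph reads. Clvs1 took between 47.8% and 53.5% of their summed reads in every library, with a median of 50.3%, and was the higher of the pair in 37 of 69. Over 43 pairs of opposite-strand exon rows in the whole table that share at least 0.9 of their bases and 1000 reads, the plus strand took a median of 49.9% of the reads. The labels describe the libraries as stranded, yet the counts of such rows are near equal on both strands, and reads of a gene and its antisense partner cannot be told apart in them.

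**Figure D2:**
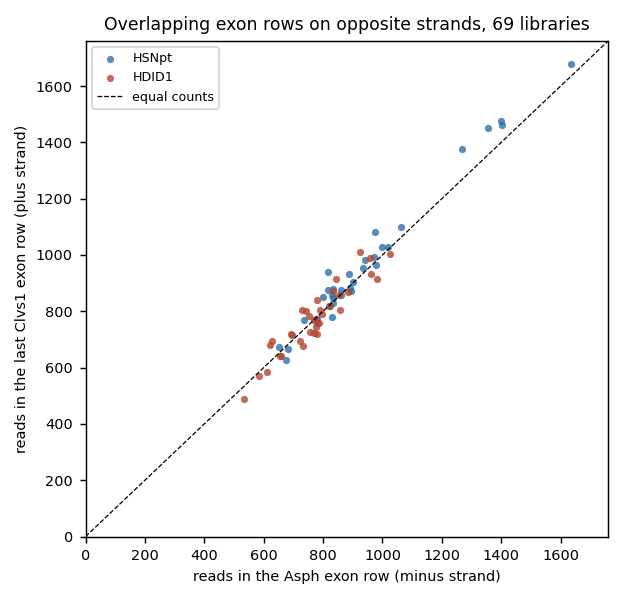
Read counts of the last Clvs1 exon row (y axis, plus strand) against the Asph row that contains it (x axis, minus strand), 1 point per library, coloured by line, with a dashed line at equal counts. All 69 libraries lie close to the line, from 47.8% to 53.5% of the summed reads in Clvs1.

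When rows that overlap a gene on the other strand were left out, the Asph log2 fold change was 0.0052 and not called, and that of Clvs1 was -0.40 and called. Under the same counting Tox had 0.27 and was not called, Gm11802 and Gm26548 could not be tested, and 7 segment genes were called. This counting was chosen after seeing the data. The other genes of the ryanodine receptor complex with which junctin associates were called in 1 of 7 cases, beside 11.7% of all genes tested. That was Casq1, a calcium-binding protein of the sarcoplasmic reticulum, at medians of 0.819 CPM in HDID1 and 0.502 CPM in HSNpt (log2 fold change 0.65, SE 0.21). The clavesin paralog Clvs2 was called higher in HDID1 (log2 fold change 0.36, SE 0.10), opposite in sign to Clvs1.

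The noncoding gene 4930412C18Rik, annotated as a processed transcript at chr4 9770585 to 9823411 on the plus strand, had the largest difference of the segment. It stood at 5.21, 8.64 and 14.98 CPM in HDID1 and at 0.525, 3.25 and 10.4 CPM in HSNpt, a log2 fold change of 1.36 (SE 0.16). All 35 HDID1 values exceeded the median of HSNpt, and 27 of 34 HSNpt mice lay below every HDID1 mouse. Its log2 fold change was 1.28 when 6 marker scores were covariates and 1.20 without the libraries that stand apart, called in each. All 4 of its exon rows that passed the filter were called, with log2 fold changes of 1.35 for row 1, 1.41 for row 2, 1.92 for row 4 and 1.19 for row 7.

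Row 4 of 4930412C18Rik, 1433 bases at chr4:9779275-9780707, overlapped least between the lines among these 4 rows. Its level was 2.06 CPM in the lowest, 3.21 CPM in the median and 6.94 CPM in the highest HDID1 mouse, and 0.0263, 0.626 and 2.72 CPM in HSNpt. Of the 34 HSNpt mice 30 were below every HDID1 mouse, and 26 of 35 HDID1 mice were above every HSNpt mouse. Row 4 held between 29.8% and 52.6% of the summed level of the 4 rows in HDID1 mice (median 39.9%), and between 2.17% and 54.2% in HSNpt mice (median 26.4%). Tested against the rest of its gene, row 4 had a usage of 0.46 on the log2 scale and was not called (diffSpliceDGE adjusted p = 0.674). Row 7, 3488 bases at the 3′ end, overlapped more, with 18 HSNpt mice below every HDID1 mouse. At the lowest levels row 4 rests on a few reads, since 1 count is worth 0.0710 CPM in the smallest library.

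The exon rows of 4930412C18Rik were also compared with each other within each line, in 12 relations chosen after their values were seen, on log2(CPM + 0.1). Among HSNpt mice rows 2 and 4 varied together (Pearson r = 0.81, Spearman rho = 0.81, permutation p = 1e-05 for each, the smallest that 100000 permutations can give; r = 0.80 without the 2 farthest mice). Rows 4 and 7 showed r = 0.29 and rho = 0.21 in HSNpt (permutation p = 0.0974 and 0.227, adjusted p = 0.0974 over 12 relations). In HDID1 the same rows 4 and 7 had r = 0.85 and rho = 0.80 (permutation p = 1e-05 for each, adjusted p = 2e-05, r = 0.76 without the 2 farthest mice). The difference between the lines in this relation was not tested. At the gene level 4930412C18Rik followed the thalamus and septum score in HDID1 with r = 0.83 and rho = 0.81 (permutation p = 1e-05 and 1e-05, adjusted p = 0.0001 over 200 relations, r = 0.80 without the 2 farthest mice). In HSNpt r was 0.31 and rho 0.30 (permutation p = 0.0745 and 0.083, adjusted p = 0.21 over 200 relations, r = 0.16 without the 2 farthest mice), and that difference between the lines was not tested either. It followed the hypothalamus score with r = 0.73 and rho = 0.76 in HDID1 (permutation p = 1e-05 and 1e-05, adjusted p = 0.0001 over 200 relations, r = 0.75 without the 2 farthest mice) and with r = 0.01 and rho = 0.01 in HSNpt (permutation p = 0.946 and 0.935, adjusted p = 0.96 over 200 relations, r = -0.12 without the 2 farthest mice). Against the spiny neuron score it had r = -0.76 and rho = -0.78 in HDID1 (permutation p = 1e-05 and 2e-05, adjusted p = 0.0001 over 200 relations, r = -0.75 without the 2 farthest mice). There r was -0.05 and rho -0.02 in HSNpt (permutation p = 0.767 and 0.89, adjusted p = 0.86 over 200 relations, r = -0.12 without the 2 farthest mice).

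**Figure D3:**
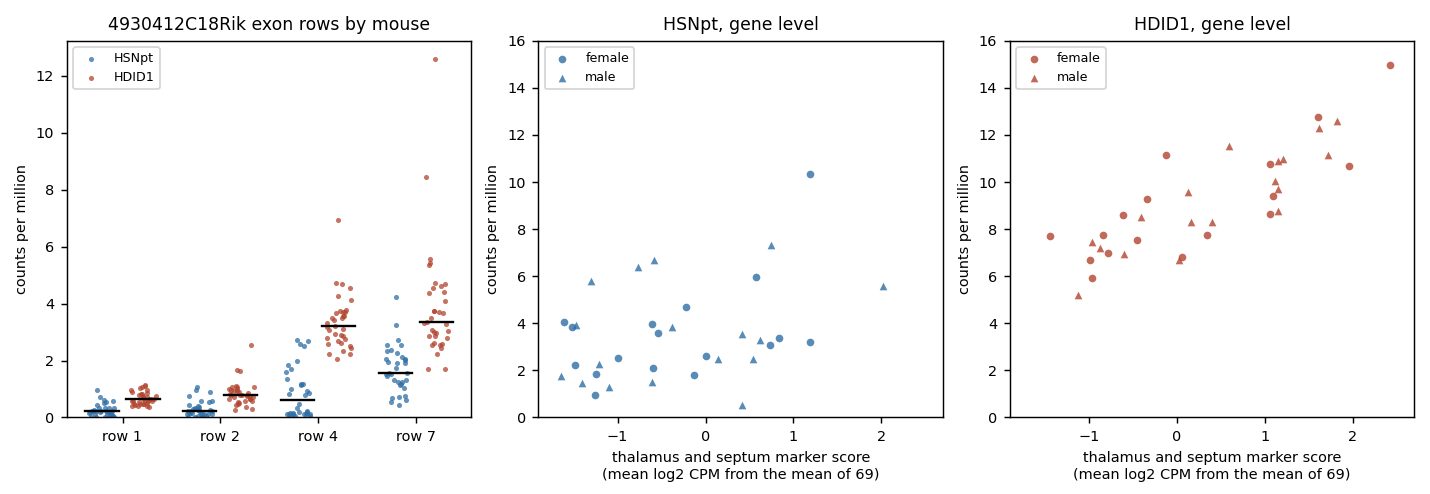
Left, level of the 4 exon rows of 4930412C18Rik (y axis, CPM) in each mouse by line, with a bar at the line median; middle and right, gene level (y axis, CPM) against the thalamus and septum marker score (x axis, mean log2 CPM from the mean of 69 libraries), by sex. Row 4 runs from 0.0263 to 2.72 CPM in HSNpt and from 2.06 to 6.94 CPM in HDID1, and the gene climbs with the score in HDID1 (r = 0.83).

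The spread between mice was set beside this. On the log2 scale the standard deviation of 4930412C18Rik was 0.34 in HDID1 and 0.85 in HSNpt, a difference in mean absolute deviation of -0.38 (SE 0.10) that was not called. In the spread comparison limma called 0 of the 20 segment genes and 0.0474% of all genes, which is 8 genes, all less variable in HDID1. At an unadjusted p under 0.05 it had 1 segment gene, 4930412C18Rik, beside 601 of all genes or 3.56%. By mean absolute deviation 6 of the 20 segment genes had a smaller spread in HDID1, beside 27.5% of all genes.

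Nsmaf and Sdcbp lie at the proximal end and overlap by 78 bases on opposite strands. Nsmaf stood at 28.3, 33.7 and 44.7 CPM in HDID1 and at 29.4, 40.05 and 46.8 CPM in HSNpt (log2 fold change -0.18, SE 0.04). Only 4 of 35 HDID1 mice were above the HSNpt median, and of the 12 fits it was not called in females alone. Sdcbp, the gene just inside the proximal edge, stood at 142.9, 176.9 and 237.4 CPM in HDID1 and at 159.2, 180.1 and 294.2 CPM in HSNpt (log2 fold change -0.07, SE 0.04, not called). Ubxn2b, the tested gene just outside that edge, had -0.15 (SE 0.07). Rab2a stood at 242.5, 296.3 and 456.2 CPM in HDID1 and at 257.9, 296.6 and 410.2 CPM in HSNpt, with a log2 fold change of 0.0032 (SE 0.05) whose sign depended on the fit.

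The distal group of genes began with 2610301B20Rik and Plekhf2, both higher in HDID1. 2610301B20Rik stood at 33.4, 40.7 and 67.03 CPM in HDID1 and at 29.4, 34.4 and 57.4 CPM in HSNpt (log2 fold change 0.25, SE 0.05), and 34 of the 35 HDID1 values exceeded the median of HSNpt. Plekhf2, which encodes an endosomal phosphoinositide-binding protein, stood at 6.07, 7.96 and 14.6 CPM in HDID1 and at 5.72, 7.14 and 9.84 CPM in HSNpt (log2 fold change 0.18, SE 0.05). It was not called without the libraries that stand apart (0.15), with 6 marker scores (0.15), without libraries of low 5′ balance (0.11), in females alone (0.28) or in males alone (0.08), and with the 5′ balance as covariate it was 0.11 and called. Its paralog Plekhf1 was called in the same direction (0.45, SE 0.14). Among 16 paralogs and assembly factors related to segment genes or to Gem, the gene just past the distal edge, 3 were called, beside 11.7% of all genes tested. All were higher in HDID1: Clvs2, Plekhf1 and the Gem paralog Rrad, a small GTPase, at 0.82 (SE 0.20).

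The other distal genes were not called, except Rad54b. Ndufaf6, an assembly factor of respiratory complex I, had a log2 fold change of -0.01 (SE 0.11), the p53-induced stress gene Trp53inp1 of 0.09 (SE 0.08), the cyclin E2 gene Ccne2 of 0.08 (SE 0.05), Ints8 of -0.04 (SE 0.05) and Dpy19l4 of 0.12 (SE 0.08). With the 5′ balance as covariate Ndufaf6 had -0.18 (SE 0.06) and Dpy19l4 0.20 (SE 0.06), and both were called. 1110037F02Rik, named Virma in GENCODE M21 and known as part of the writer complex of N6-methyladenosine, stood at 28.9, 53.97 and 64.4 CPM in HDID1 and at 33.02, 56.9 and 70.4 CPM in HSNpt (log2 fold change -0.13, SE 0.05). In none of the 12 fits was it called. Of 10 other tested Integrator subunits, 2 were called, beside 11.7% of all genes tested. Both were lower in HDID1: Ints4 (-0.11, SE 0.04) and Ints7 (-0.16, SE 0.06). Rad54b, a recombination repair gene read at about 1 CPM, stood at 0.390, 0.970 and 1.65 CPM in HDID1 and at 0.586, 1.27 and 2.54 CPM in HSNpt (log2 fold change -0.37, SE 0.12), and 6 of the 35 HDID1 values exceeded the median of HSNpt. It was not called without a filter on low counts (-0.37), without the libraries that stand apart (-0.39), with 6 marker scores (-0.33), without libraries of low 5′ balance (-0.36), in females alone (-0.40) or in males alone (-0.33). It was the last tested gene inside the distal edge, and Gem, just outside it, had 0.15 (SE 0.10).

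**Figure D4:**
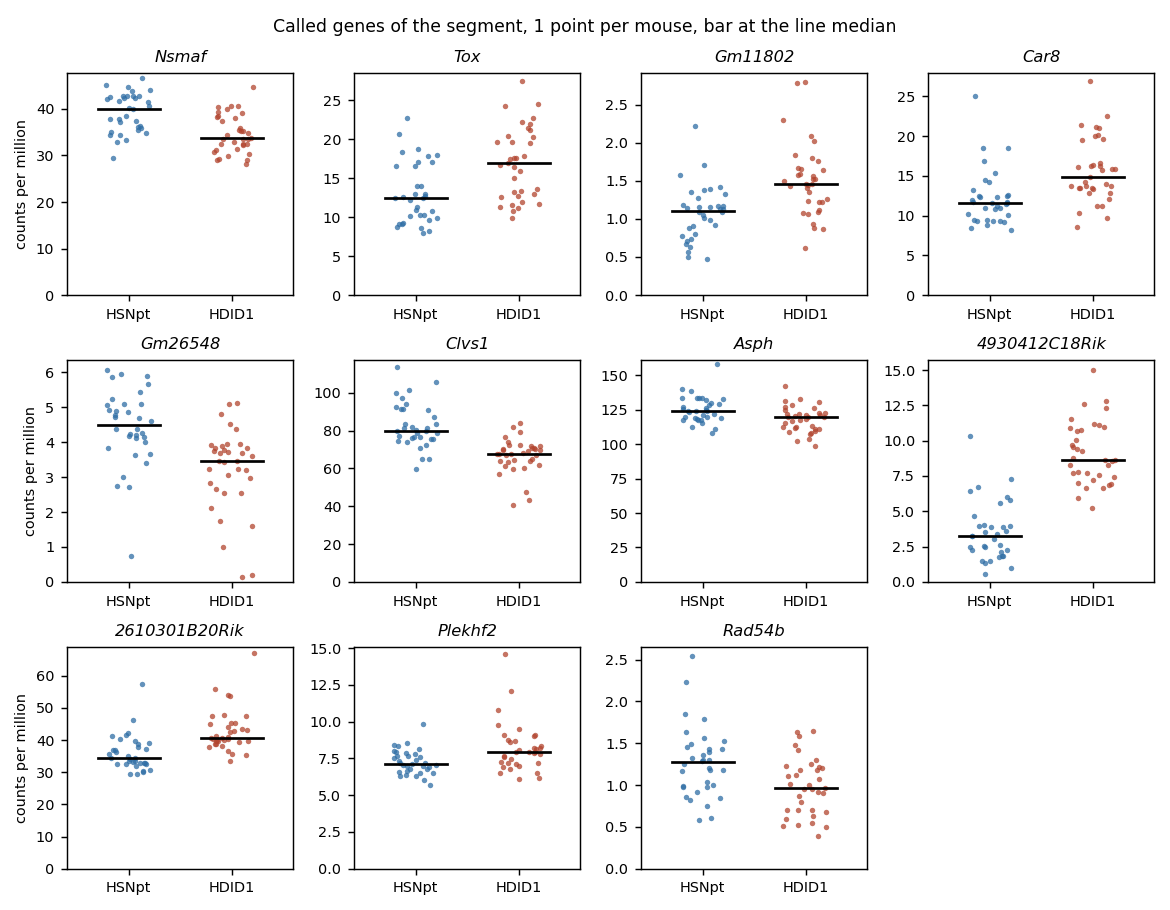
Level in CPM (y axis) of the 11 segment genes called by line, 1 point per mouse, with a black bar at the median of each line (x axis). The lines overlap in all 11 genes, least in 4930412C18Rik, where 27 of 34 HSNpt mice lie below every HDID1 mouse.

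The stretches of chromosome 4 on either side were listed in the same way. Of 12 tested genes before the segment, 2 were called, Tmem68 (log2 fold change -0.45, SE 0.06) and Lyn (-0.29, SE 0.05). Of 22 after it, 5 were called: Rbm12b1 (0.29, SE 0.06) and Rbm12b2 (0.24, SE 0.06) were higher in HDID1, and 1700123M08Rik (-0.33, SE 0.09), Triqk (-0.25, SE 0.07) and Calb1 (-0.26, SE 0.08) were lower. Over the whole chromosome 13.8% of 1060 tested genes were called.

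At the exon level 199 of the 395 rows passed the filter, and 45 rows had no read in any library. Of the 199, 20 were called by line, or 10.1%, beside 2.72% of all 124520 exon rows tested, and this is the contrast the segment was chosen on. They belonged to 12 genes, with 11 rows higher and 9 lower in HDID1. All 9 passing rows of Tox and all 9 of Car8 had a positive log2 fold change, from 0.18 to 0.66 in Tox and from 0.19 to 0.58 in Car8. All 6 passing rows of Clvs1 had a negative one, from -0.47 to -0.16. Asph did not follow its gene-level sign: 15 of its 18 passing rows were positive, with a median of 0.10, while the row shared with Clvs1, which holds the most reads, had -0.13 (SE 0.08).

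In Tox the called rows were the last, of 2109 bases, at medians of 6.31 CPM in HDID1 and 4.47 CPM in HSNpt (log2 fold change 0.66, SE 0.15), and coding row 10 printed above, at 1.55 and 1.08 CPM (0.44, SE 0.12). With the 5′ balance as covariate these came to 0.41 and 0.49. In Car8 only the last row was called, at medians of 7.60 and 5.005 CPM (0.58, SE 0.14), and with the balance covariate it came to 0.36. The balance was lower in HDID1, at a median of -0.0066 and a lowest value of -2.73, than in HSNpt, at a median of 0.0961 and a lowest value of -2.2. In Clvs1 rows 1, 4 and 9 were called, and for row 4, the longest of them at 885 bases, 18 HSNpt mice were above every HDID1 mouse and 0 HDID1 mice were above the HSNpt median of 12.8 CPM. Nsmaf rows 18, 19 and 26 were called lower, with row 18 at 1.07 against 1.44 CPM (-0.35, SE 0.08).

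Some called rows belonged to genes that were not called. Coding row 4 of Ndufaf6 stood at 0.424, 0.853 and 4.73 CPM in HDID1 and at 0.307, 0.631 and 2.41 CPM in HSNpt (log2 fold change 0.65, SE 0.17, and 0.39 with the 5′ balance as covariate), and 34 of the 35 HDID1 values exceeded the median of HSNpt. The last row of Dpy19l4, of 4628 bases, stood at medians of 25.9 and 20.4 CPM (0.31, SE 0.07), while 10 of its 18 passing rows had a negative log2 fold change. The first rows of Sdcbp (-0.42, SE 0.11) and Rab2a (-0.23, SE 0.06) were called lower in HDID1. Ndufaf6 moved with the 5′ balance of the library at r = -0.68 and rho = -0.41 in HSNpt (permutation p = 2e-05 and 0.0158, adjusted p = 0.000444 over 200 relations, r = -0.41 without the 2 farthest mice). Rab2a moved with it at r = -0.65 and rho = -0.51 (permutation p = 1e-05 and 0.00249, adjusted p = 0.000444 over 200 relations, r = -0.57 without the 2 farthest mice), and the part of the balance in these exon differences was not tested beyond the covariate fit.

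Exon usage asks whether a row differs between the lines from the rest of its gene. Of 196 segment rows tested by diffSpliceDGE, 1 was called, a share near the 0.469% called over all rows tested. It was the 36-base coding row 19 of Asph printed above, at 0.051, 0.742 and 1.52 CPM in HDID1 and at 0.0553, 0.254 and 1.35 CPM in HSNpt. The ranges coincided, but 28 of the 35 HDID1 values exceeded the median of HSNpt. Its usage was 0.60 on the log2 scale, on a mean of 10.6 counts, and a neighbouring row, row 18, had 0.29 without a call. The diffSpliceDGE adjusted p of row 19 was 0.0499, just under the threshold of 0.05. The call was lost without the 12 libraries that stand apart (0.66) and without the library that goes against its sex label (0.58), and the row was not tested where rows needed a mean of 20 counts. With the 5′ balance as covariate usage was 0.77 and was called, as was that of Ndufaf6 row 4 at 0.58, and 3 segment rows were called in all.

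Sex, the interaction of line and sex, and blood ethanol within a line are contrasts that the choice of the segment did not use. Of the segment genes 0 were called by sex, beside 0.0949% of all genes, and edgeR gave 3 of them an unadjusted p below 0.05, as it did 1530 of all genes or 9.07% (DESeq2 called 0 in the segment and likewise had 3). Ccne2 stood at medians of 11.3 CPM in HDID1 females and 10.3 CPM in HDID1 males, and at 10.0 and 9.66 CPM in HSNpt females and males. Its male minus female log2 difference was -0.15 (SE 0.05, unadjusted p = 0.0045, edgeR adjusted p = 0.551). Sdcbp had -0.11 (SE 0.04, unadjusted p = 0.00803) and Plekhf2 -0.11 (SE 0.05, unadjusted p = 0.0385), both at an edgeR adjusted p of 0.551.

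For the interaction, edgeR called 0 of the segment genes and 0% of all genes, with 849 of 16867 genes and 1 segment gene at an unadjusted p under 0.05, and DESeq2 called 0 in the segment. That gene was Ints8, a subunit of the Integrator complex that cleaves nascent RNA. It stood at medians of 38.3 CPM in HDID1 females and 42.8 CPM in HDID1 males, and at 42.6 and 40.9 CPM in HSNpt females and males, an interaction of 0.28 on the log2 scale (SE 0.10, unadjusted p = 0.00565, edgeR adjusted p = 0.978). Plekhf2 followed at -0.19 (SE 0.11, unadjusted p = 0.0871) and 1110037F02Rik at 0.15 (SE 0.10, unadjusted p = 0.158). No line difference of the segment was shown to depend on sex.

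Blood ethanol at the end of the last session, read in a unit that the sources do not state, had a median of 0.256 in HSNpt, where 16 of 34 mice read 0 and the highest read 1.70, and a median of 1.498 with a highest reading of 2.81 in HDID1. Within HSNpt edgeR called 0 segment genes and 0% of all genes against the reading, and 0 segment genes had an unadjusted p under 0.05, beside 2.98% of all genes. The smallest was that of Car8, at 0.09 on the log2 scale per standard deviation of the reading (SE 0.06, unadjusted p = 0.171), followed by Ndufaf6 (0.08, SE 0.06, p = 0.21, edgeR unadjusted) and Ints8 (-0.04, SE 0.03, p = 0.234, edgeR unadjusted). Within HDID1 edgeR called 0 segment genes and 0% of all genes, and 2 segment genes had an unadjusted p under 0.05 among 1478 of all genes. These were Ndufaf6 at -0.17 per standard deviation (SE 0.08, unadjusted p = 0.0442) and Plekhf2 at -0.09 (SE 0.04, unadjusted p = 0.0455), with an edgeR adjusted p of 0.546 for each, and 2610301B20Rik was next (-0.07, SE 0.03, unadjusted p = 0.0574). Tox stood at -0.01 (SE 0.07) in HSNpt and 0.01 (SE 0.07) in HDID1, and 4930412C18Rik at 0.05 (SE 0.15) and -0.06 (SE 0.06).

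Co-variation was examined within each line, with the level of each of the 20 tested genes in turn as a covariate for every other gene. Among the 34 HSNpt mice, 91 of 380 ordered pairs of segment genes were called at an edgeR adjusted p under 0.05, which is 23.9%, beside 26.8% of all genes against the same covariates. Among the 35 HDID1 mice 163 of 380 were called, or 42.9%, beside 43.7% of all genes. In both lines the share within the segment was near the share across all genes. Dpy19l4, Rab2a and Ndufaf6 had the most partners in HSNpt, with 11, 10 and 10 of 19 other segment genes, and Gm11802, 4930412C18Rik, Plekhf2 and Rad54b had 0. Those with many partners in the segment had many elsewhere: Dpy19l4 was called with 53.3% of all genes and 4930412C18Rik with 0%.

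Tox, Car8 and Asph were compared with each other. Tox and Car8 varied together among HSNpt mice with r = 0.44 and rho = 0.35 (permutation p = 0.00894 and 0.0422, r = 0.40 without the 2 farthest mice), which edgeR did not call over all genes (adjusted p = 0.0635, the larger of both directions). In HDID1 they had r = 0.33 and rho = 0.34 (permutation p = 0.0527 and 0.0482, edgeR adjusted p = 0.109), and r was -0.08 there without the shared rows (edgeR adjusted p = 0.882). With 6 marker scores as covariates the edgeR adjusted p of the pair was 0.77 in HSNpt, with the 5′ balance it was 0.0235, and without rows shared between strands, which include the last Tox row, it was 0.216. Tox and Asph had r = 0.22 and rho = 0.24 in HSNpt (permutation p = 0.205 and 0.172, edgeR adjusted p = 0.547). Without the rows shared between strands they had r = 0.59 in HSNpt (edgeR adjusted p = 0.0104) and r = 0.58 in HDID1 (edgeR adjusted p = 0.00667), where Asph lacks the row shared with Clvs1 and Tox its last row. Car8 and Asph had r = -0.21 and rho = -0.15 in HSNpt (permutation p = 0.227 and 0.391) and r = -0.20 in HDID1.

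The 10 pairs of smallest p in HSNpt were picked by that p, so their HSNpt values describe them, and their HDID1 values are a separate sample. EdgeR called 9 of the 10 in HSNpt, all but Tox with Gm11802 (adjusted p = 0.0764). All 10 had the same sign of r in HDID1 and all 10 were called there by edgeR. Among them Tox and Gm11802 share exon bases on opposite strands, so their counts are not independent in either line. That pair could not be tested without the shared rows. Most genes of these pairs were called in HDID1 with a large share of all genes, from 62.8% for Trp53inp1 to 69.8% for 1110037F02Rik. Sdcbp, Tox and Gm11802 were the exceptions, at 13.9%, 12% and 0.00593% of all genes. Gm26548 and 1110037F02Rik had r = 0.85 and rho = 0.71 in HSNpt, and r = 0.84 and rho = 0.64 in HDID1 (permutation p = 1e-05 and 3e-05, edgeR adjusted p = 7.51e-07). Rab2a and Chd7 went in opposite directions, with r = -0.81 and rho = -0.72 in HSNpt, and r = -0.81 and rho = -0.75 in HDID1 (permutation p = 1e-05 for each, edgeR adjusted p = 2.1e-07). Trp53inp1 and Dpy19l4 had r = 0.77 and rho = 0.70 in HSNpt, and r = 0.88 and rho = 0.88 in HDID1 (permutation p = 1e-05 for each, edgeR adjusted p = 4.83e-10). The others were Chd7 with Dpy19l4, Rab2a with Ndufaf6, Rab2a with Dpy19l4, Ndufaf6 with 1110037F02Rik, Chd7 with Trp53inp1, Tox with Gm11802 and Sdcbp with Chd7, with r between -0.75 and 0.75 in HSNpt and between -0.77 and 0.80 in HDID1.

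Several of these genes moved with the 5′ balance of the library, among them 1110037F02Rik, Gm26548, Rab2a, Chd7 and Ndufaf6. Sdcbp, Tox and Gm11802 did not pass against the balance in either line (adjusted p = 0.599, 0.0747 and 0.154 in HSNpt by permutation). Against the microglia score they did pass in HSNpt, with r = 0.56, -0.50 and -0.47 (permutation adjusted p = 0.00926, 0.0197 and 0.0296 over 200 relations). For Sdcbp rho was 0.23 there (permutation p = 0.19). Against the 5′ balance, 1110037F02Rik had r = 0.83 and rho = 0.62 in HSNpt (permutation p = 1e-05 and 0.0001, adjusted p = 0.000444 over 200 relations, r = 0.66 without the 2 farthest mice). Against the microglia score Rab2a had r = 0.75 and rho = 0.53 in HSNpt (permutation p = 1e-05 and 0.00128, adjusted p = 0.000444 over 200 relations, r = 0.62 without the 2 farthest mice). With the balance as covariate the number called went from 9 to 7 of the 10 pairs in HSNpt and from 10 to 5 in HDID1. Gm26548 with 1110037F02Rik was not (edgeR adjusted p = 0.0854 and 0.744), while Rab2a with Chd7 was (0.000232 and 0.00231). Sdcbp with Chd7 had r = -0.67 in HSNpt and -0.60 in HDID1 but -0.04 and 0.32 without the shared rows, which include row 13 of 14 of Sdcbp. When 1 mouse was kept for each lab number, a label in the file headers whose meaning is not given, 30 of 380 ordered pairs were called over 18 HSNpt mice, or 7.89% beside 9.71% of all genes, and 152 over 24 HDID1 mice, or 40% beside 39.2%.

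**Figure D5:**
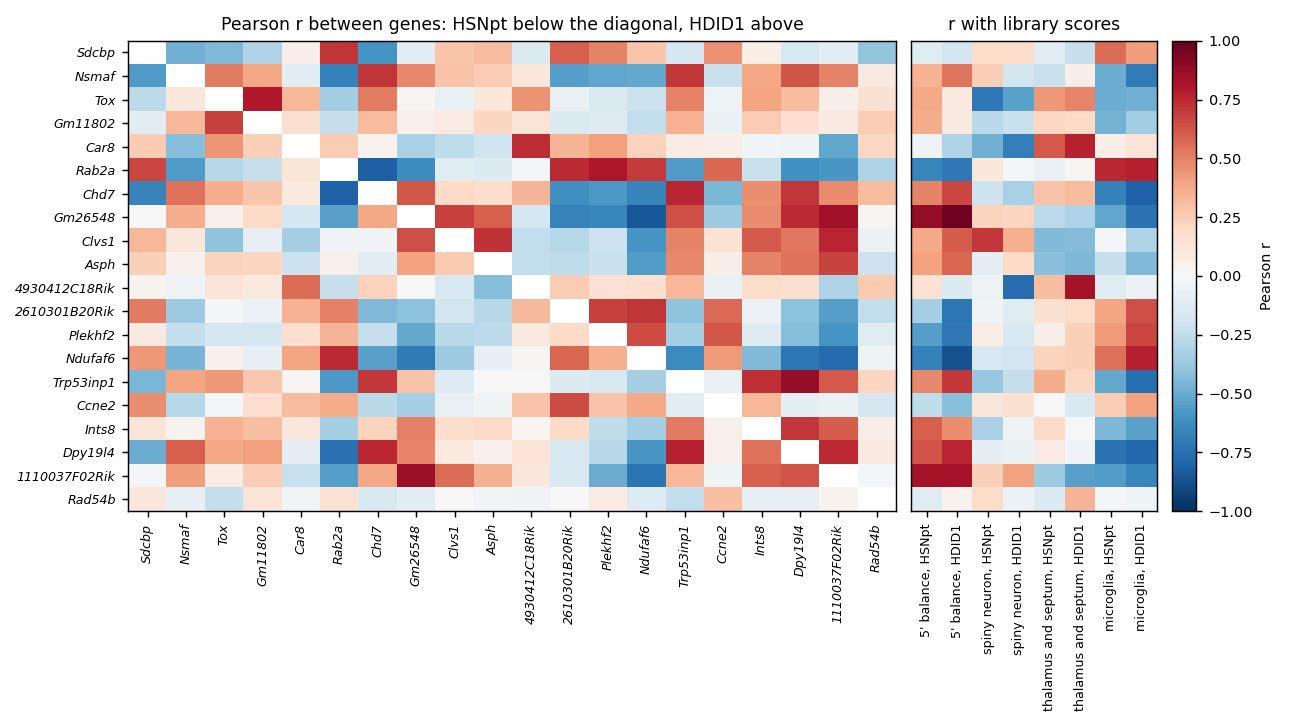
Pearson r between the 20 tested genes in chromosome order, with HSNpt below the diagonal and HDID1 above it (left), and r of each gene with 4 library scores in each line (right); red is positive and blue negative. Gm26548 and 1110037F02Rik are strongly red with each other (r = 0.85 in HSNpt) and with the 5′ balance, and Rab2a and Chd7 are blue (r = -0.81).

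A pair noticed in these values, Car8 and 4930412C18Rik, had r = 0.56 and rho = 0.46 in HSNpt (permutation p = 6e-04 and 0.00687, edgeR adjusted p = 1) and r = 0.74 and rho = 0.71 in HDID1 (permutation p = 1e-05 and 2e-05, edgeR adjusted p = 2.98e-05). With 6 marker scores as covariates the edgeR adjusted p in HDID1 was 0.999. Outside the segment, the genes most like Tox among HSNpt mice, by smallest p, were Ildr2 (r = 0.86, rho = 0.89), the neuronal RNA-binding gene Elavl4 (r = 0.85, rho = 0.84) and the kinase gene Cdk14 (r = 0.85, rho = 0.86). Those most like Car8 were Opn3 (r = 0.75, rho = 0.67), Vav3 (r = 0.72, rho = 0.59) and Lhfp (r = 0.74, rho = 0.68). Those most like Asph were the synaptic vesicle gene Sv2b (r = 0.79, rho = 0.72), Gpr22 (r = 0.77, rho = 0.64) and Zbtb18 (r = 0.77, rho = 0.66). All 9 were called in HDID1 as well, at edgeR adjusted p from 1.64e-06 to 0.00709, and with 6 marker scores as covariates none was called in HSNpt. Asph itself followed the cortex score at r = 0.65 and rho = 0.61 in HSNpt (permutation p = 3e-05 and 0.0001, adjusted p = 0.000545 over 200 relations, r = 0.64 without the 2 farthest mice) and r = 0.53 and rho = 0.44 in HDID1 (permutation p = 0.00089 and 0.00808, adjusted p = 0.00379 over 200 relations, r = 0.33 without the 2 farthest mice). In HSNpt it went against the hypothalamus, choroid plexus and oligodendrocyte scores, with r = -0.51, -0.53 and -0.51 (permutation adjusted p = 0.0159, 0.0107 and 0.0161 over 200 relations). The Asph counts behind these scores and its list of most alike genes include the row shared with Clvs1.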

How the data were processed

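The values deposited by the authors are unnormalized counts, whole reads for each gene and each exon row. The tools named, per the submitters' processing notes, are STAR, CASAVA, FastQC, edgeR and bedtools, with the build mm10, and per the labels libraries were poly-A selected and stranded. The sources used here give neither their versions nor how the counting treated strand. Exon counts summed to the gene count for all 68 segment genes.

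From these counts genes were filtered with filterByExpr, scaled by TMM and tested with edgeR 4.0.16 (quasi-likelihood F test, R 4.3.3) on 4 groups of line by sex over 69 libraries, with Benjamini-Hochberg adjustment over all genes and a threshold of 0.05. An SE is the log2 fold change over the root of its F statistic, in absolute size. Exon usage used diffSpliceDGE, spread was tested by limma 3.58.1 on each mouse's absolute deviation from its group median (log2 CPM, prior count 2), and co-variation and blood ethanol edgeR within a line with sex as covariate. DESeq2 1.42.0, other scaling, no filter, single sexes, marker scores and left-out libraries were alternatives, and alternatives on shared rows, 5′ balance, lab numbers and the sex label were added after seeing the data. Libraries stood apart at over 3 MAD from the median. Correlations are of residuals after sex, with 100000 permutations.

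The members, lists and tests were chosen with earlier results of these data known. All tested member genes are named; exons are named by smallest usage p and first and last rows of Tox, Car8 and Asph, and any other called row was chosen after its value was seen. Pairs and outside genes are named by smallest p. Steps were tested on simulated data. No label says that mice of a group came from separate litters, so p-values measure the spread between these mice. At a count of 0 up to 3 counts, or 0.213 CPM in the smallest library, are allowed, counting error only. Replicate numbers follow sample order.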

Additional observations from a re-analysis of the deposited data

How the results depend on the processing

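No paired analysis was possible because replicate numbers follow sample order and pair no mice. Of 11 segment genes called by line, 5 were called without libraries that stand apart in marker scores, 3 with 6 marker scores as covariates, 7 without rows shared between strands, 2 in females alone and 4 in males alone; the cause was not tested, beyond the smaller number of mice in single sexes and, for shared rows, 2 genes that could not be tested. The number of segment exon rows called by line went from 20 to 7 without the libraries apart and to 32 with 5′ balance as covariate. For these gene and exon counts the share over all genes or rows in the same fit is not given. No change in them can therefore be read as particular to the segment. The single usage call went to 0 without the libraries apart and without the library against its sex label, and to 3 with 5′ balance; with a mean of 20 counts required the count was 0 because that row was not tested. Co-variation calls in HSNpt went from 91 to 56 on ranks with limma, 54 with 5′ balance and 30 with 1 mouse per lab number, while the share over all genes went from 26.8% to 17.9%, 13.3% and 9.71%. In HDID1 they went from 163 to 94 with 6 marker scores and 71 with 5′ balance, with all genes at 43.7%, 23.9% and 16.2%, and to 152 with 1 mouse per lab number, with all genes at 39.2%.

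Signs turned in genes not called and, without shared rows, in Asph (0.0052). Rab2a had -0.0037 with RLE scaling, -0.0045 without a filter, -0.0058 without libraries apart, -0.029 with 6 scores, -0.054 with 5′ balance, -0.043 without libraries of low balance, -0.025 in males and -0.0037 by DESeq2. Chd7 had 0.047 with 5′ balance, 0.032 without low-balance libraries and 0.048 in males. Ndufaf6 had 0.057 in females, Trp53inp1 -0.014 with 6 scores and -0.0089 in females, and Ints8 0.089 in males. Ndufaf6 and Dpy19l4 gained a call with 5′ balance. Among the other alternatives, 46 summary values stayed within 1.5 times of the reported count, including all counts of 0 for sex, interaction, spread and blood ethanol.

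Depth limits low genes most: Rad54b and Asph row 19 rest on about 1 CPM or less, and rare genes of the segment were not testable at this depth.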
